A study of Mus musculus with 16 samples.

Results

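A set of 10 genes that restrain Wnt signalling or report on it were examined in pancreatic tumor cells with and without the chromatin regulator Sin3B. They were 6 genes for antagonists that act outside the cell (Sfrp1, Sfrp2, Frzb, Dkk1, Dkk3 and Wif1) and 4 feedback genes (Axin2, Lgr5, Rnf43 and Znrf3). Each was matched by its symbol in both count tables, where it stood among 55414 and 56980 genes with an Ensembl identifier. The members were chosen by name with the genotype and IFNγ effects in these libraries already known. Their locations in GRCm39, by Ensembl identifier, are chr8:23901263-23939648 for Sfrp1, chr3:83673481-83681623 for Sfrp2, chr2:80242313-80278304 for Frzb, chr19:30523263-30527065 for Dkk1, chr7:111712904-111758760 for Dkk3, chr10:120869865-120936555 for Wif1, chr11:108811169-108841609 for Axin2, chr10:115286216-115423685 for Lgr5, chr11:87553548-87626377 for Rnf43 and chr11:5226324-5394939 for Znrf3. Their fold changes in those comparisons are therefore a description of these libraries, and the adjusted p-values beside them come from fits over all genes.

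The cells were KPC1199, a mouse line grown from a spontaneous pancreatic ductal adenocarcinoma of a KPC mouse, a Pdx-cre model that carries a mutant Trp53 allele. All libraries came from cells transduced with a lentiviral CRISPR vector and selected in puromycin, with either a non-targeting control guide (sgCtrL) or 1 guide against Sin3B (Sin3Bsg1), so the genotype effect rests on a single guide. The first experiment held untreated cells, 2 libraries of each genotype. The second held 3 libraries for each genotype without IFNγ and 3 for each with IFNγ (interferon gamma, 10 ng/ml for 24 h), 16 libraries in all. The sources used here do not say whether the replicates were separate cultures, so p-values measure the spread between these libraries, which may be technical.

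Wnt ligands bind a Frizzled receptor together with the co-receptor Lrp5 or Lrp6, which stops the destruction of β-catenin and lets it switch on genes through TCF/LEF factors. Sfrp proteins, Frzb and Wif1 bind Wnt ligands outside the cell, and Dkk1 binds the Lrp co-receptors. Axin2, Lgr5, Rnf43 and Znrf3 are transcribed in many tissues when the pathway is active. Axin2 promotes destruction of β-catenin, Rnf43 and Znrf3 are ubiquitin ligases that remove Frizzled receptors from the cell surface, and Lgr5 is a receptor for R-spondins, which block those ligases.

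The libraries held 29683181 to 32311721 estimated counts in the untreated experiment and 18128055 to 27056903 in the IFNγ experiment. Levels are given as CPM, counts scaled to library size with TMM factors, and levels of different genes are compared as TPM, which also corrects for gene length. Sin3b itself was at 85.9 ± 3.65 CPM (SD, n = 2) in untreated sgCtrL cells and at 35.3 ± 1.71 CPM (SD, n = 2) in Sin3Bsg1 cells. In the IFNγ experiment it was at 92.4 ± 3.61 CPM against 39.1 ± 0.411 CPM (SD, n = 3) without IFNγ, and at 82.8 ± 2.14 CPM against 35.6 ± 2.04 CPM (SD, n = 3) with it. Epithelial markers fitted the labelled cell type, with 8 of 8 above the floor of 3 counts in every group. Cd68 was the only 1 of 5 leukocyte markers above it. Of 10 fibroblast markers 3 to 7 were above it, depending on the group, and Postn had no count.

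The upstream DNA of the members is shown where a RefSeq promoter entry was matched, because Frzb and Axin2 fell together with IFNγ in both genotypes. Promoters were matched for 6 of the 10 members: Axin2, Dkk1, Frzb, Rnf43 (with 2 start sites), Sfrp2 and Wif1. The 250 bases before the start site were searched on both strands for CTTTG, the core of a TCF/LEF site. Over 32851 mouse promoters of this length, 48.6% held it. Frzb (chr2:80447397-80447646, minus strand, GRCm38.p6) held 1, starting 94 bases before the start site and shown in capitals, read on the opposite strand. Axin2 (chr11:108920099-108920348, plus strand, GRCm38.p6) held none in this window.
Frzb: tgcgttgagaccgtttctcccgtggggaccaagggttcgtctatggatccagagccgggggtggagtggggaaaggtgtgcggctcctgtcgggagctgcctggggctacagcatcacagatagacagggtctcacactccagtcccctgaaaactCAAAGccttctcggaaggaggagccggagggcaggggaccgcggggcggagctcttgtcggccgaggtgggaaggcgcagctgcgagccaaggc
Axin2: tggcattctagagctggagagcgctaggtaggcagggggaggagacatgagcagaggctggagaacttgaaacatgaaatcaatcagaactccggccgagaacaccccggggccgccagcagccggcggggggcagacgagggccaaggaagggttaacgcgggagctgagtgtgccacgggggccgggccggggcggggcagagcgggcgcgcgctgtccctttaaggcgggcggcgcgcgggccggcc
The Frzb window had a GC content of 64.4% with 16 CpG dinucleotides and the Axin2 window 69.2% with 24, against medians of 52.4% and 6 over all promoters. Among the antagonists without counts, the Dkk1 window held 4 TCF/LEF cores, the Wif1 window held 1 and the Sfrp2 window held none. Neither Rnf43 window held the core. A match is a run of letters, and binding was not measured here.

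Of the 6 antagonists, Sfrp1 and Frzb were expressed, Dkk3 was near the limit of detection, and Sfrp2, Dkk1 and Wif1 had 0 counts in all 16 libraries. A count of 0 allows up to 3 counts, which is 0.0933 to 0.162 CPM in these libraries and covers counting error only. All 4 feedback genes were detected in every library. In sgCtrL cells without IFNγ, Sfrp1 was the highest member at 24.3 ± 0.690 TPM (SD, n = 3), followed by Frzb at 14.2 ± 0.776 TPM. Axin2 (9.94 ± 0.626 TPM) and Znrf3 (9.71 ± 0.120 TPM) came next, and their means differed by less than the SD of Axin2. Lgr5 was at 5.38 ± 0.694 TPM, Rnf43 at 2.15 ± 0.507 TPM and Dkk3 at 0.130 ± 0.0741 TPM. In untreated sgCtrL cells of the first experiment the order was Sfrp1 (7.92 ± 0.258 TPM, n = 2), Frzb (7.47 ± 0.0839 TPM), Znrf3 (6.08 ± 0.0195 TPM), Axin2 (0.775 ± 0.270 TPM), Rnf43 (0.459 ± 0.0993 TPM), Lgr5 (0.206 ± 0.0194 TPM) and Dkk3 (0.0928 ± 0.0432 TPM). Each gap between neighbours in this second order was larger than the SD of either of them.

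**Figure D1:**
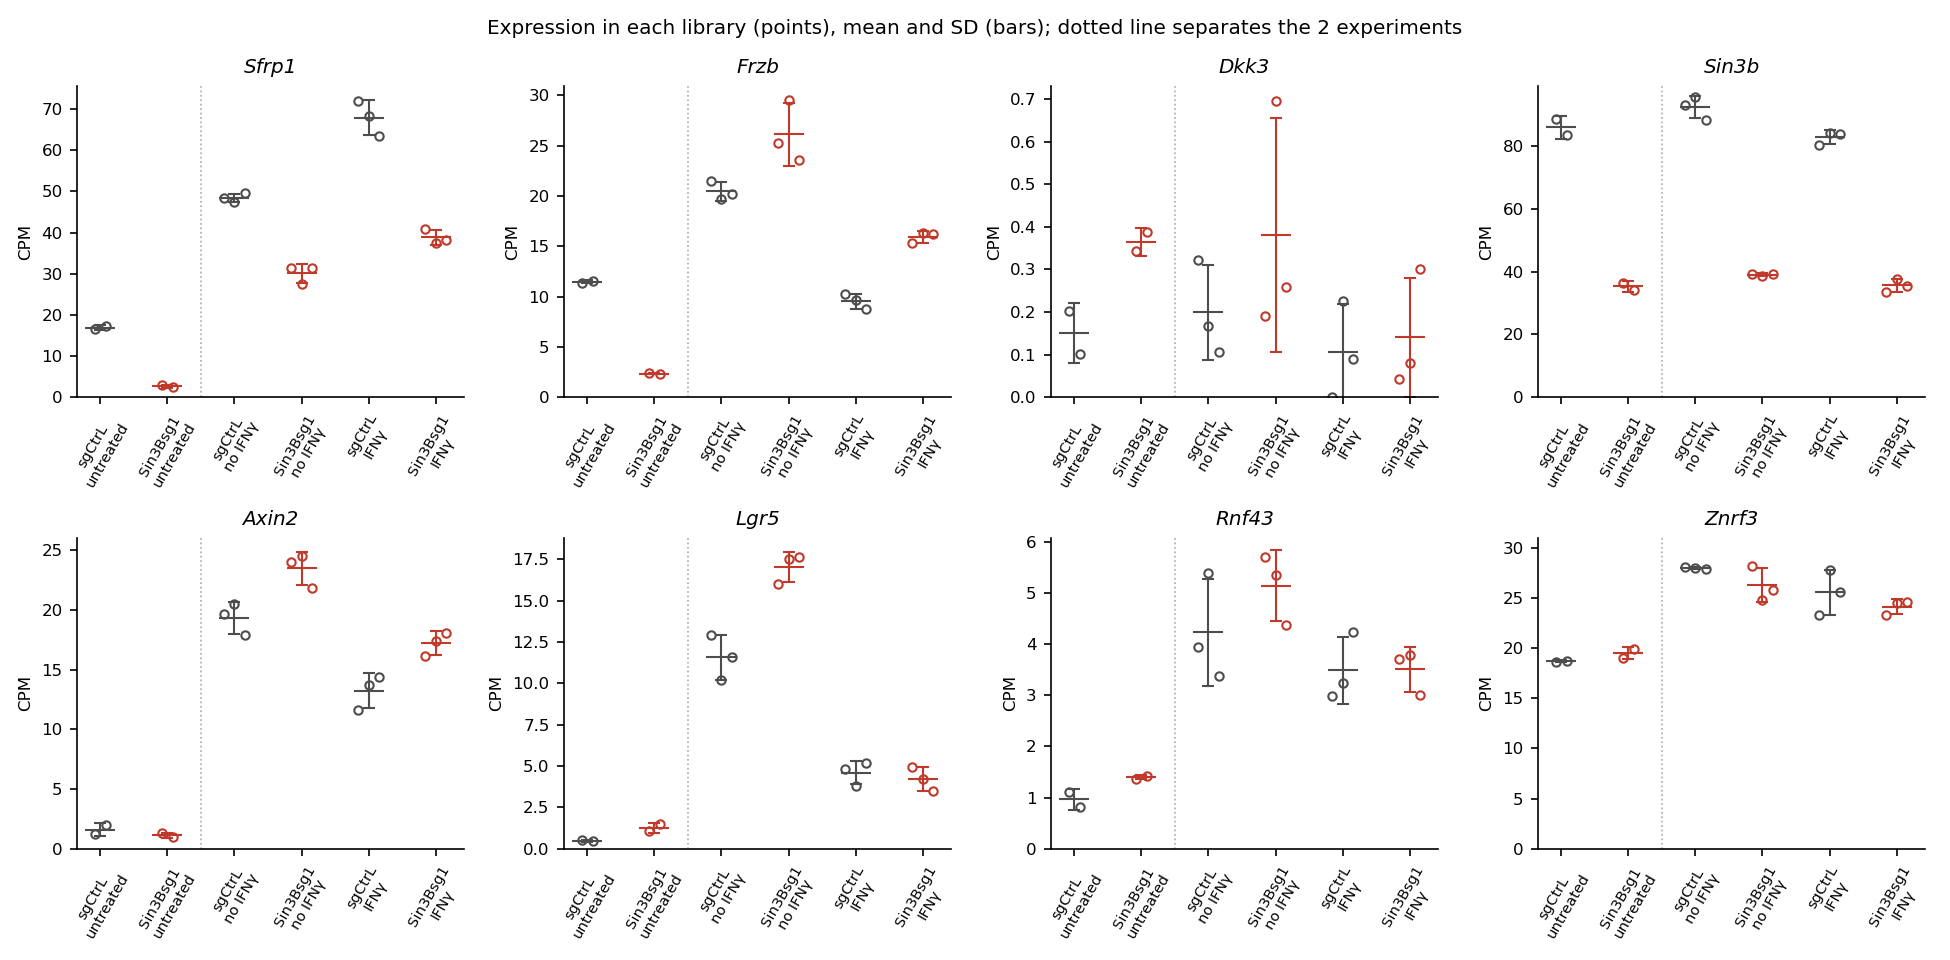
CPM (vertical axis, linear, from 0) of 7 members and of Sin3b in each of the 16 libraries. Points are libraries, horizontal bars the group means and error bars the SD (n = 2 left of the dotted line, n = 3 right of it). Grey is sgCtrL and red Sin3Bsg1. Sfrp1 is lower in red in each of the 3 pairs of groups, Frzb is lower in red on the left and higher in red on the right, and Lgr5 falls toward 3.48 to 5.18 CPM in both genotypes with IFNγ.

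Sfrp1, a secreted protein with a Frizzled-like domain that binds Wnt ligands, was lower in Sin3Bsg1 cells in both experiments. Untreated sgCtrL libraries had 16.5 and 17.3 CPM and Sin3Bsg1 libraries 2.96 and 2.43 CPM. Without IFNγ the sgCtrL libraries had 48.4, 47.5 and 49.5 CPM and the Sin3Bsg1 libraries 31.4, 27.4 and 31.5 CPM. With IFNγ they had 71.9, 68.3 and 63.4 CPM against 40.8, 37.4 and 38.3 CPM. The genotypes did not overlap in any of the 3 settings. In untreated cells Sfrp1 was 6.25-fold lower in Sin3Bsg1, a log2 fold change of -2.64 (SE 0.13, edgeR adjusted p = 1.95e-10). Without IFNγ it was 1.61-fold lower (log2 fold change -0.69, SE 0.066, edgeR adjusted p = 2.45e-06) and with IFNγ 1.75-fold lower (log2 fold change -0.81, SE 0.064, edgeR adjusted p = 2.90e-07). IFNγ raised Sfrp1 in sgCtrL cells by 0.49 on the log2 scale (SE 0.063, edgeR adjusted p = 2.27e-05) and in Sin3Bsg1 cells by 0.36 (SE 0.066, edgeR adjusted p = 0.000535).

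Frzb, which also binds Wnt ligands through a Frizzled-like domain and is known from cartilage, moved in opposite directions in the 2 experiments. Untreated sgCtrL libraries had 11.3 and 11.6 CPM and Sin3Bsg1 libraries 2.40 and 2.30 CPM. Without IFNγ the sgCtrL libraries had 21.5, 19.7 and 20.1 CPM and the Sin3Bsg1 libraries 25.2, 29.6 and 23.5 CPM. With IFNγ sgCtrL had 10.2, 9.63 and 8.73 CPM and Sin3Bsg1 15.3, 16.3 and 16.2 CPM. In each setting the genotypes were apart, with Sin3Bsg1 below sgCtrL in untreated cells and above it in the IFNγ experiment. The log2 fold change between genotypes was -2.28 in untreated cells (SE 0.14, edgeR adjusted p = 3.70e-09), 0.35 without IFNγ (SE 0.085, edgeR adjusted p = 0.00876) and 0.74 with IFNγ (SE 0.094, edgeR adjusted p = 4.26e-05). Without replicate 2 of Sin3Bsg1, its highest Frzb library without IFNγ, the log2 fold change there was 0.26 and missed the threshold (edgeR adjusted p = 0.0557). IFNγ lowered Frzb in both genotypes, by a log2 fold change of -1.10 in sgCtrL (SE 0.094, edgeR adjusted p = 1.85e-07) and of -0.71 in Sin3Bsg1 (SE 0.086, edgeR adjusted p = 9.59e-06).

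In untreated cells the summed level of the fibroblast marker list was lower in Sin3Bsg1, as Sfrp1 and Frzb were. It was 101.6 to 101.8 CPM in sgCtrL and 31.1 to 34.3 CPM in Sin3Bsg1. Most of it was Pdgfra, at 86.1 CPM in sgCtrL and 25.1 CPM in Sin3Bsg1, followed by Pdgfrb at 13.4 and 6.06 CPM. Each other marker had a group mean of at most 1.05 CPM. Among those above the floor, Col1a2, Thy1 and Des had lower means in Sin3Bsg1, and Dcn and Acta2 higher ones. Above the floor were 7 of the 10 markers in both genotypes, with Postn at 0 in both and Fap at 0 in Sin3Bsg1. The summed epithelial list moved the other way, from between 4773 and 4797 CPM to between 6442 and 6489 CPM. In the IFNγ experiment the fibroblast sum was 261 to 269 CPM in sgCtrL and 223 to 234 CPM in Sin3Bsg1 without IFNγ, and 189 to 192 CPM against 165 to 177 CPM with IFNγ. Most of that sum was again Pdgfra, at 232.8 and 194.3 CPM without IFNγ and 164.6 and 141.8 CPM with it. Pdgfrb went the other way, at 30.6 CPM in sgCtrL and 34.9 CPM in Sin3Bsg1 without IFNγ and at 20.1 and 24.2 CPM with it. The part of these markers in the results for Sfrp1 and Frzb was not tested. In bulk RNA, fewer cells of a type and less RNA per cell cannot be told apart.

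Dkk3, a secreted protein of the Dickkopf family, was close to the floor in every group. Untreated sgCtrL libraries had 6 and 3 counts (0.201 and 0.102 CPM) and Sin3Bsg1 libraries 11 and 12 counts (0.342 and 0.388 CPM). It passed the filter on low counts in the untreated experiment only through the Sin3Bsg1 libraries, so its values are given without a test. In the IFNγ experiment, where it was not tested, its counts ran from 0 to 16 and all 4 groups overlapped.

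Axin2, the scaffold of the β-catenin destruction complex that is a common readout of Wnt activity, was higher in Sin3Bsg1 cells in the IFNγ experiment. Without IFNγ the sgCtrL libraries had 19.6, 20.5 and 17.9 CPM and the Sin3Bsg1 libraries 24.0, 24.5 and 21.9 CPM. With IFNγ they had 11.6, 13.7 and 14.4 CPM against 16.2, 17.4 and 18.1 CPM. The genotypes did not overlap with or without IFNγ. The log2 fold change was 0.28 without IFNγ (SE 0.085, edgeR adjusted p = 0.0332) and 0.37 with it (SE 0.089, edgeR adjusted p = 0.00811). The call without IFNγ was lost when replicate 1 (edgeR adjusted p = 0.110) or 2 (0.121) of Sin3Bsg1, or replicate 1 (0.0777) or 3 (0.144) of sgCtrL, was left out. In untreated cells sgCtrL had 1.21 and 2.01 CPM and Sin3Bsg1 1.28 and 0.939 CPM, which overlapped (log2 fold change -0.53, 95% interval -1.26 to 0.19, edgeR adjusted p = 0.268). IFNγ lowered Axin2 by a log2 fold change of -0.54 in sgCtrL (SE 0.089, edgeR adjusted p = 0.000227) and of -0.45 in Sin3Bsg1 (SE 0.084, edgeR adjusted p = 0.000765).

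Lgr5, the R-spondin receptor that marks stem cells of the intestine, was higher in Sin3Bsg1 cells without IFNγ in both experiments and had the largest fall with IFNγ of the 6 members tested. Untreated sgCtrL libraries had 0.504 and 0.442 CPM (15 and 13 counts) and Sin3Bsg1 libraries 1.06 and 1.49 CPM (34 and 46 counts). Without IFNγ sgCtrL had 12.9, 10.2 and 11.6 CPM and Sin3Bsg1 16.02, 17.5 and 17.6 CPM. With IFNγ the genotypes overlapped, at 4.82, 3.81 and 5.18 CPM in sgCtrL and 4.93, 4.24 and 3.48 CPM in Sin3Bsg1. The genotype effect in log2 was 1.42 in untreated cells (SE 0.41, edgeR adjusted p = 0.0136), 0.56 without IFNγ (SE 0.12, edgeR adjusted p = 0.00482) and -0.12 with IFNγ (95% interval -0.45 to 0.21, edgeR adjusted p = 0.678). The untreated call was lost without replicate 2 of Sin3Bsg1 (edgeR adjusted p = 0.156), without replicate 2 of sgCtrL (0.0741) and with DESeq2 (adjusted p = 0.0630). IFNγ lowered Lgr5 2.52-fold in sgCtrL (log2 fold change -1.33, SE 0.14, edgeR adjusted p = 2.36e-06) and 4.04-fold in Sin3Bsg1 (log2 fold change -2.01, SE 0.14, edgeR adjusted p = 1.04e-08). Lgr5 overlaps A930009A15Rik on the opposite strand, and reads of the pair could not be told apart if the counting ignored strand. Annotated genes on the opposite strand also overlap Frzb, Axin2, Rnf43 and Znrf3. On the same strand, 1110028F11Rik overlaps Rnf43 and Gm72655 overlaps Znrf3.

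Of the ubiquitin ligases, Rnf43 passed the threshold in 1 of 5 comparisons and Znrf3 in none of them. Rnf43 had 1.11 and 0.816 CPM in untreated sgCtrL and 1.37 and 1.42 CPM in untreated Sin3Bsg1 libraries. Without IFNγ it had 3.93, 5.38 and 3.37 CPM in sgCtrL against 5.71, 5.35 and 4.38 CPM in Sin3Bsg1, and with IFNγ 2.98, 3.25 and 4.23 CPM against 3.72, 3.79 and 3.004 CPM. The genotypes overlapped in the IFNγ experiment and were apart in the untreated experiment. No genotype effect on Rnf43 passed the threshold, with log2 fold changes of 0.53 (95% interval -0.17 to 1.24, edgeR adjusted p = 0.254), 0.27 (-0.14 to 0.69, 0.390) and 0.0080 (-0.42 to 0.44, 0.987) in that order. IFNγ lowered Rnf43 in Sin3Bsg1 (log2 fold change -0.55, SE 0.19, edgeR adjusted p = 0.0442). That call was lost in 5 of 6 fits that left out a library, with edgeR adjusted p from 0.0584 to 0.152 without any of the 3 Sin3Bsg1 libraries with IFNγ or without replicate 1 or 2 of Sin3Bsg1 without IFNγ. In sgCtrL the effect was -0.29 (95% interval -0.72 to 0.14, edgeR adjusted p = 0.315).

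Znrf3 had 18.6 and 18.7 CPM in untreated sgCtrL, 19.0 and 19.9 CPM in untreated Sin3Bsg1, and 23.3 to 28.1 CPM across the 12 libraries of the IFNγ experiment. Its genotype effect in log2 was 0.061 in untreated cells (95% interval -0.11 to 0.23, edgeR adjusted p = 0.621), -0.090 without IFNγ (-0.24 to 0.059, 0.440) and -0.087 with IFNγ (-0.24 to 0.062, 0.457). Its log2 fold change with IFNγ was -0.13 in sgCtrL (95% interval -0.28 to 0.023, edgeR adjusted p = 0.198) and -0.12 in Sin3Bsg1 (-0.27 to 0.024, 0.209), neither past the threshold.

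**Figure D2:**
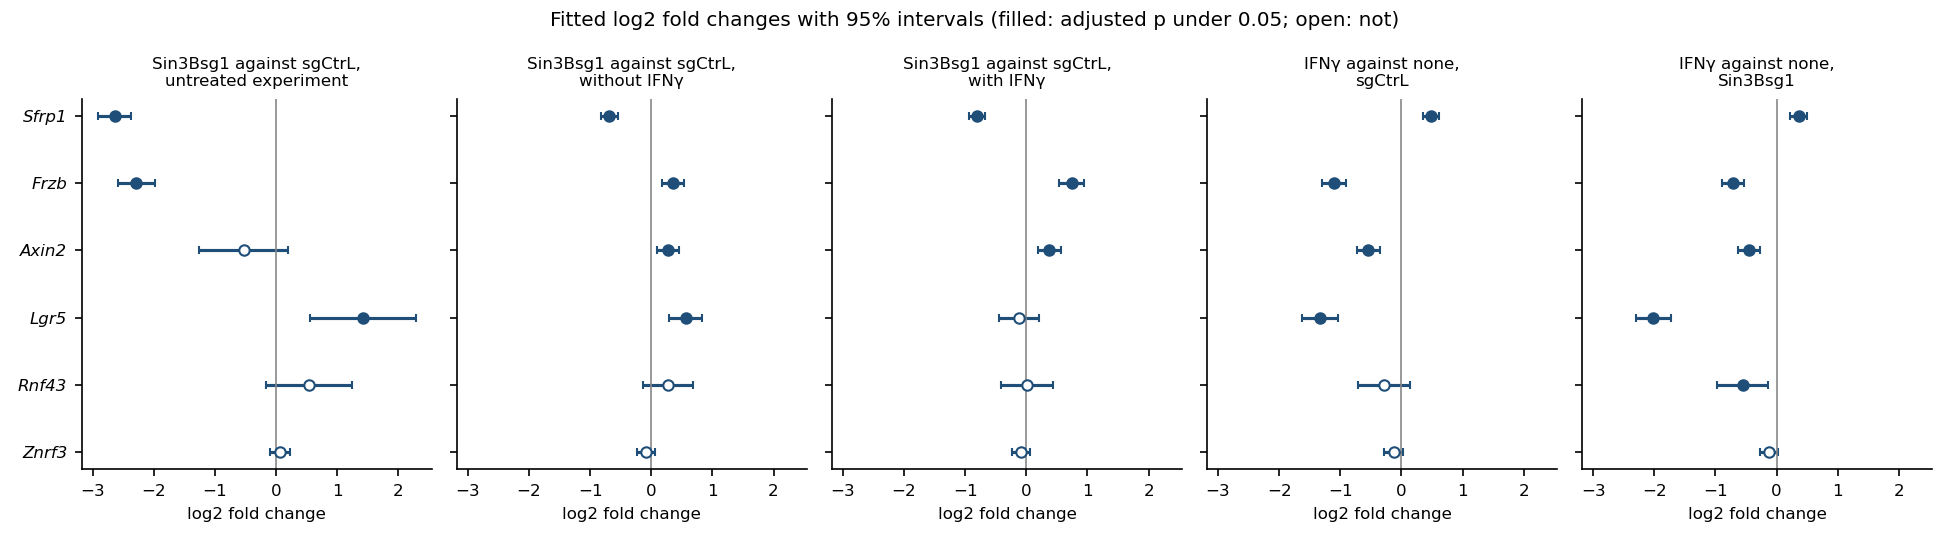
Fitted log2 fold changes (horizontal axis) of the 6 members tested in both experiments, in a panel for each of 5 comparisons. Bars are 95% intervals, filled points passed an edgeR adjusted p of 0.05 and open points did not. Sfrp1 lies left of 0 in the 3 genotype panels and right of it in both IFNγ panels, while Frzb lies left of 0 in untreated cells at -2.28 and right of it in the IFNγ experiment at 0.35 and 0.74.

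Counted over the members, 3 of the 7 tested differed between genotypes in untreated cells, beside 31.1% of all 14589 genes tested. The 7 include Dkk3, which entered only through its Sin3Bsg1 libraries and was not called. Lgr5 was higher (15.1% of all genes were) and Sfrp1 and Frzb were lower (16%). Without IFNγ 4 of 6 differed, beside 17.2% of 14913 genes, with Frzb, Axin2 and Lgr5 higher (7.89% of all genes) and Sfrp1 lower (9.33%). With IFNγ 3 of 6 differed, beside 16.5%, with Frzb and Axin2 higher (8.62%) and Sfrp1 lower (7.90%). IFNγ changed 4 of 6 members in sgCtrL, beside 30.2% of all genes, with Sfrp1 higher (15.7%) and Frzb, Axin2 and Lgr5 lower (14.5%). In Sin3Bsg1 it changed 5 of 6, beside 28.4%, with Sfrp1 higher (16.1%) and Frzb, Axin2, Lgr5 and Rnf43 lower (12.3%). The members were chosen with these comparisons known, and nothing is read from these shares. The genotype and IFNγ comparisons of the second experiment share libraries.

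Whether IFNγ acted differently in the 2 genotypes was asked with the interaction term over the 12 libraries. It passed the edgeR threshold for 0 of 6 members, beside 0.114% of all genes. Before adjustment 2 members were under 0.05, beside 810 of all 14913 genes tested. DESeq2 also called 0 of 6. Lgr5 had an interaction of -0.68 in log2 (95% interval -1.10 to -0.26, edgeR adjusted p = 0.538), a larger fall in Sin3Bsg1. Frzb had 0.39 (95% interval 0.12 to 0.66, edgeR adjusted p = 0.670), a smaller fall in Sin3Bsg1. The intervals were -0.32 to 0.074 for Sfrp1, -0.16 to 0.36 for Axin2, -0.86 to 0.33 for Rnf43 and -0.21 to 0.21 for Znrf3.

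The genotype effect itself differed between the experiments for 3 of 6 members, beside 13.6% of 15264 genes tested in a joint fit of the 10 libraries without IFNγ. The difference was the log2 fold change in untreated cells minus that without IFNγ in the second experiment. It was -2.65 for Frzb (SE 0.16, edgeR adjusted p = 4.78e-10), whose effect changed sign, and -1.97 for Sfrp1 (SE 0.14, edgeR adjusted p = 3.80e-09), whose effect was negative in both. For Axin2 it was -0.82 (SE 0.27, edgeR adjusted p = 0.0487), a call that was lost with all 16 libraries in the fit (edgeR adjusted p = 0.0842). The Axin2 value shrank to -0.40 without replicate 2 of untreated sgCtrL, and ran from -1.13 to -0.40 with single libraries left out. Lgr5 had 0.84 (95% interval 0.17 to 1.51, edgeR adjusted p = 0.0928), Rnf43 0.25 (-0.49 to 0.998, 0.722) and Znrf3 0.14 (-0.065 to 0.35, 0.403). For Sin3b the difference was -0.049 (95% interval -0.20 to 0.097, edgeR adjusted p = 0.726). The 2 experiments differed also in depth and in their tables, and these cannot be told apart from whatever else set the experiments apart.

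**Figure D3:**
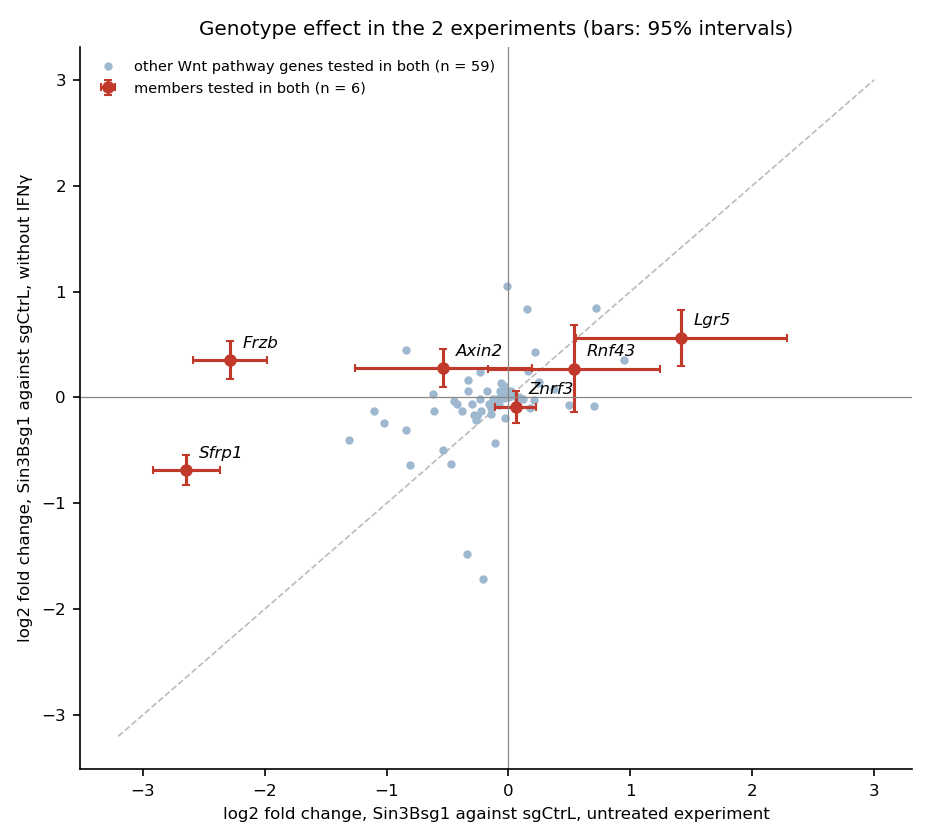
Log2 fold change of Sin3Bsg1 against sgCtrL in untreated cells (horizontal axis) and without IFNγ in the second experiment (vertical axis) for 6 members (red, with 95% intervals) and 59 other Wnt pathway genes (blue). The dashed line marks equal effects. Frzb lies in the upper left, at -2.28 and 0.35, and Sfrp1 far to the left of the line, at -2.64 and -0.69.

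The levels of the members also differed between the experiments, set side by side here from tables that were scaled separately and without a test. In sgCtrL cells Lgr5 was 24.5 times and Axin2 12.03 times higher without IFNγ in the second experiment than in the untreated experiment. Rnf43 was 4.39 times, Sfrp1 2.87 times, Frzb 1.79 times and Znrf3 1.497 times higher. In Sin3Bsg1 cells the ratio was 21.2 for Axin2, 13.4 for Lgr5, 11.2 for Sfrp1 and 11.1 for Frzb. Over the 14049 genes with at least 0.25 CPM in sgCtrL in both tables the median absolute log2 ratio was 0.30, and 0.925% of them were beyond 3 in either direction, as Lgr5 (4.61) and Axin2 (3.59) were.

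By the rule for likeness, the Pearson correlation of log2(CPM + 1) over the 16 libraries after subtracting the mean of each experiment, the 3 genes most like Sfrp1 among 12070 were Plcb4 (0.975), Gng12 (0.973) and Ntn1 (0.964). The libraries share their genotypes and treatments, so these values are a description. Plcb4 is a phospholipase C, Gng12 a G protein subunit and Ntn1 the guidance cue netrin. Among the 5 members with a mean of at least 1 CPM in both experiments, which leaves out Lgr5, the closest pair was Frzb and Axin2 (0.779), and Sfrp1 stood at 0.296 to Frzb and -0.203 to Axin2. The order of the Frzb and Axin2 levels in the second experiment was the same, from Sin3Bsg1 without IFNγ (26.1 ± 3.10 and 23.5 ± 1.40 CPM) through sgCtrL without IFNγ (20.5 ± 0.926 and 19.3 ± 1.31 CPM) and Sin3Bsg1 with IFNγ (15.9 ± 0.572 and 17.2 ± 0.973 CPM) to sgCtrL with IFNγ (9.53 ± 0.756 and 13.2 ± 1.44 CPM; SD, n = 3).

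The rest of the pathway was counted from a list of 93 genes by role. Of these, 24 were at or under 3 counts in every library, among them the ligands Wnt1 and Wnt3a, the R-spondins Rspo1 and Rspo4, and the antagonist Dkk4, each with 0 counts. In untreated cells 38 of the 61 tested differed between genotypes (62.3%, beside 31.1% of all genes), 10 higher and 28 lower in Sin3Bsg1 (15.1% and 16% of all genes), with a median log2 fold change of -0.094 beside 0.0024 over all genes. Nuclear factors held 7 lower and 0 higher of 11 tested, receptors and co-receptors 6 lower and 3 higher of 12, and the other antagonists 4 lower and 0 higher of 5. The largest changes were in Wnt5a, a ligand of β-catenin-independent signalling (1.77 ± 0.199 against 0.714 ± 0.0423 CPM, n = 2, log2 fold change -1.31, edgeR adjusted p = 0.00592), and Ccn4 (5.21 ± 0.668 against 2.43 ± 0.134 CPM, -1.10, edgeR adjusted p = 0.000299). Bambi, a decoy receptor of the TGFβ family, went from 10.0 ± 0.818 to 4.93 ± 0.424 CPM (log2 fold change -1.02, edgeR adjusted p = 1.78e-05). The receptor Fzd5 rose from 113.5 ± 3.03 to 218.7 ± 0.747 CPM (log2 fold change 0.95, edgeR adjusted p = 1.07e-12).

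In the IFNγ experiment 17 of 63 differed without IFNγ (27.0%, beside 17.2% of all genes, 8 higher and 9 lower, median log2 fold change -0.016 beside -0.0090 over all genes), and 17 of 63 with IFNγ (27.0%, beside 16.5% of all genes, 7 higher and 10 lower, median 0.0084 beside 0.0036). The ligand Wnt10a had 3 to 4 counts per sgCtrL library without IFNγ (0.185 ± 0.0517 CPM) and 86 to 112 counts per Sin3Bsg1 library (3.93 ± 0.290 CPM; SD, n = 3). With IFNγ it had 0 to 9 counts per sgCtrL library and 37 to 60 counts per Sin3Bsg1 library (2.06 ± 0.427 CPM; SD, n = 3). In this experiment it passed the filter on low counts only through the Sin3Bsg1 libraries, so its values are given without a test. In the untreated experiment Wnt10a had 1 to 3 counts per sgCtrL library and 3 to 4 per Sin3Bsg1 library, and it was not tested there. Both counts of 17 above include Wnt10a among the genes higher in Sin3Bsg1. Wnt5b, another ligand, fell in Sin3Bsg1 by a log2 fold change of -1.72 without IFNγ (7.65 ± 0.598 against 2.33 ± 0.358 CPM, edgeR adjusted p = 4.65e-05) and of -1.90 with it (edgeR adjusted p = 6.19e-05). In the untreated experiment the Wnt5b means were 2.57 CPM in sgCtrL and 2.23 CPM in Sin3Bsg1. Ror2, a receptor for Wnt5 ligands, fell by -1.48 (31.1 ± 0.321 against 11.1 ± 1.04 CPM, edgeR adjusted p = 1.36e-08) and by -1.28 (edgeR adjusted p = 9.03e-08). Pygo1, a nuclear cofactor of β-catenin, fell in Sin3Bsg1 by -1.90 without IFNγ (8 to 20 counts per Sin3Bsg1 library, edgeR adjusted p = 0.00201). Among libraries with IFNγ, Porcn, the enzyme that acylates Wnt ligands, was higher in Sin3Bsg1 by 0.99 (edgeR adjusted p = 0.000178). Its mean was also higher in Sin3Bsg1 without IFNγ (10.95 against 6.06 CPM) and in untreated cells (30.1 against 18.3 CPM).

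With IFNγ 33 of 63 changed in sgCtrL (52.4%, beside 30.2% of all genes), 28 lower and 5 higher (14.5% and 15.7% of all genes), with a median log2 fold change of -0.20 beside -0.00062 over all genes. In Sin3Bsg1 31 of 63 changed (49.2%, beside 28.4% of all genes), 26 lower and 5 higher (12.3% and 16.1% of all genes), with a median of -0.20 beside 0.0052. Of 8 ligands tested, 5 were lower and 0 higher in each genotype, and of 13 receptors and co-receptors 6 were lower in sgCtrL and 7 in Sin3Bsg1, with 0 higher. Wnt5a fell by -1.38 in sgCtrL (edgeR adjusted p = 0.00172) and by -0.81 in Sin3Bsg1 (edgeR adjusted p = 0.0441), and Wnt5b by -0.87 (edgeR adjusted p = 0.00506) and -1.06 (edgeR adjusted p = 0.00632). The R-spondin receptor Lgr6 fell by -0.87 in sgCtrL (33.8 ± 1.45 to 18.5 ± 1.47 CPM, n = 3, edgeR adjusted p = 3.28e-07). The antagonist Sfrp4 fell by -0.83 there (6.79 ± 0.833 to 3.83 ± 0.373 CPM, edgeR adjusted p = 0.000899). In Sin3Bsg1 the corepressor Tle2 fell by -0.80 (edgeR adjusted p = 0.000282) and the ligand Wnt4 by -0.79 (edgeR adjusted p = 0.00331). The interaction passed the edgeR threshold for 0 of 63, beside 0.114% of all genes, and for 0 by DESeq2. Before adjustment 5 were under 0.05, beside 810 of all 14913 genes tested.

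**Figure D4:**
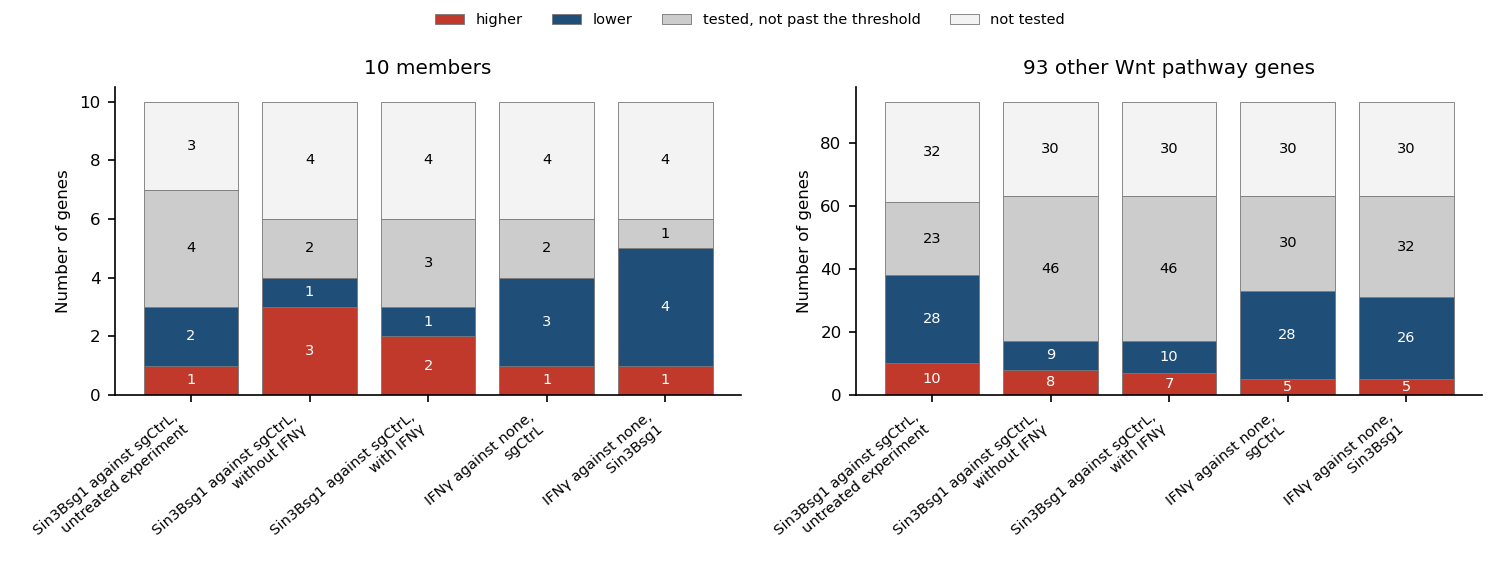
Number of genes (vertical axis, from 0) among the 10 members (left) and the 93 other Wnt pathway genes (right) that were higher (red), lower (blue), tested without passing an edgeR adjusted p of 0.05 (grey) or not tested (white) in 5 comparisons. Among the other genes, lower calls outnumber higher ones 28 to 5 with IFNγ in sgCtrL and 26 to 5 in Sin3Bsg1.

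The difference of the genotype effect between experiments passed the threshold for 20 of 64 other genes (31.2%, beside 13.6% of all genes), 7 higher and 13 lower. Those with log2 fold changes of opposite sign in the 2 experiments are named here. The share of such genes over all genes was not counted, and nothing is read from their number. Unlike for Frzb, the genotypes overlapped without IFNγ for Wnt7b (46.6 to 48.8 CPM in sgCtrL, 43.1 to 47.0 in Sin3Bsg1). They also did for Fzd2 (37.2 to 40.2 and 36.0 to 43.7 CPM). The ligand Wnt7b had a log2 fold change of 0.70 in untreated cells and -0.083 without IFNγ (difference 0.77, edgeR adjusted p = 0.000334). The receptor Fzd1 had -0.33 and 0.17 (difference -0.51, edgeR adjusted p = 2.37e-07), and the receptor Fzd2 -0.33 and 0.058 (difference -0.40, edgeR adjusted p = 0.00572). The β-catenin cofactor Bcl9l had -0.23 and 0.24 (difference -0.48, edgeR adjusted p = 5.43e-07). The kinase Gsk3a and the adaptor Dvl1 differed by -0.24 (edgeR adjusted p = 0.00424) and -0.20 (edgeR adjusted p = 0.0319).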

How the data were processed

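RNA-seq of KPC1199 cells was available as 2 tables, 1 for each experiment, of estimated counts per gene that the authors deposited without normalization, together with group means that were left out. The methods of the paper name HISAT2 with the mm9 genome for alignment and featureCounts, on uniquely mapped reads, for counting. The submitters' processing notes list mm39, fastp, HISAT2, StringTie and DESeq2, and the tables carry no coordinates. Versions and strand setting are not given in the sources used here. Control columns named after a lacZ guide were taken as sgCtrL, the only other guide. For untreated cells, 324 assembled loci without an Ensembl identifier (0.615 to 0.677% of a library's counts) were left out.

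Counts were rounded and tested with edgeR 4.0.16 in R 4.3.3 (TMM, filterByExpr, glmQLFit and glmQLFTest, two-sided, Benjamini-Hochberg over all genes tested, threshold 0.05). The experiments were fitted apart, with 1 mean per group, and the difference between them in a joint fit of 10 libraries on shared identifiers. TMM factors ran from 0.957 to 1.04. CPM used TMM library sizes and TPM the deposited gene lengths. Alternatives were DESeq2 1.42.0, size factors by relative log expression, no low-count filter, at least 10 counts in every library, fits of only the groups compared or of all libraries, a replicate block, and each library left out. The fits were tested on simulated data. Tables and figures used Python 3.11.15, pandas 2.3.3, numpy 2.4.6 and matplotlib 3.10.9.

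The members and lists were chosen with earlier results of these data known. Beside all members and Sin3b, the text names, in each comparison, up to 4 other pathway genes with the largest change among those called whose groups did not overlap and whose mean reached 1 CPM, those with opposite signs between experiments, and the 3 genes most like Sfrp1. Genes at or under 3 counts, and list members counted by role, were named as examples after their values were seen. Gene locations are from GENCODE vM39 (GRCm39), whose identifiers matched the tables for 10 of 10 members, and promoters from RefSeq (GRCm38.p6). An allele of the mouse model and a second promoter pattern are not reported here.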

Additional observations from a re-analysis of the deposited data

Results flagged for a closer look

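For 3 members the effect of the Sin3B guide differed between the 2 experiments by a test of the difference itself, the log2 fold change in untreated cells minus that without IFNγ. The difference was -2.65 for Frzb (edgeR adjusted p = 4.78e-10), where Sin3Bsg1 was below sgCtrL in 2 of 2 untreated libraries and above it in 3 of 3 libraries without IFNγ. It was -1.97 for Sfrp1 (edgeR adjusted p = 3.80e-09), which was lower in Sin3Bsg1 in both. It was -0.82 for Axin2 (edgeR adjusted p = 0.0487), whose untreated libraries had 29 to 59 counts and whose untreated effect did not itself pass the threshold. The Axin2 call was lost in some of the other fits, and its difference ran from -1.13 to -0.40 with single libraries left out. Groups of 2 or 3 libraries were too small to look for single deviating libraries.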

How the results depend on the processing

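The counts of members called kept their direction and stayed within 1.5 times of the value given under every alternative but 1. Without replicate 2 of Sin3Bsg1 without IFNγ, 2 members in place of 4 differed between genotypes there, and leaving out each of the 6 libraries in turn gave 2 to 4. The count of other Wnt pathway genes whose genotype effect differed between experiments, 20, was 12 with all 16 libraries in 1 fit and ran from 13 to 20 with single libraries left out. Rnf43 had a genotype effect with IFNγ close to 0, and its sign turned with at least 10 counts in every library (-0.00077) and with the replicate block (-0.0016), and with single libraries left out (-0.040, -0.053, -0.072 and -0.045; range -0.072 to 0.17). The effect on Lgr5 with IFNγ turned to 0.0017 without replicate 3 of Sin3Bsg1 with IFNγ (range -0.25 to 0.0017). The interaction for Znrf3 turned with relative log expression size factors (-0.012), DESeq2 (-0.012), no low-count filter (-0.0010) and at least 10 counts (-0.019), and ran from -0.056 to 0.057 with single libraries left out (-0.029, -0.030, -0.036, -0.011, -0.056 and -0.00038 where it turned). None of these values passed the threshold, and the cause was not tested.

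Over all genes, fitting only the groups compared called 3996 genes between genotypes without IFNγ (2568 as given) and 1500 with IFNγ (2464). The 17 interactions called became 32 with DESeq2, 110 without the low-count filter and 1 to 33 with single libraries left out. The 2076 differences between experiments became 1048 with all libraries in 1 fit. DESeq2 called 3075 genes in untreated cells (4543 as given) and 2 in place of 3 members. Counted once for each value in each refit, calls on members were lost 3 times under other settings and 19 times with a library left out. Some of those refits left 1 library in a group. The losses fell on the genotype effects on Frzb and Axin2 without IFNγ and on Lgr5 in untreated cells. They also fell on the IFNγ effect on Rnf43 in Sin3Bsg1 and on the Axin2 difference between experiments.

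The labels do not say whether same-numbered replicates were paired. Their deviations from the group means correlated from -0.0288 to 0.119 over 18 pairs in the IFNγ experiment, with 1 pair over 0.1. In the untreated experiment they correlated at 0.0130, where deviations in groups of 2 mirror each other and give only 1 value. With the replicate block 3 members differed in untreated cells, and 4 without and 3 with IFNγ, and the Axin2 difference between experiments had an adjusted p of 0.0575 with edgeR. Genes under about 10 counts per library, such as Dkk3, could not be compared at this depth.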
